A study of Mus musculus with 16 samples.

Results

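NIC isoforms, as the TALON software names them, are transcripts that join annotated splice sites of a gene in a combination absent from the annotation used for classing. They were read here from PacBio long reads of mouse brain, in which a single read spans a whole cDNA. Isoforms of class NIC in annotated (Known) genes were chosen by their read counts and kept when 2 or more of the 16 samples had at least 5 reads each. This rule gave 1812 NIC isoforms in 1238 genes, of 120731 NIC isoforms of Known genes and 815498 isoforms of all classes. By the same count of reads, 10737 Known isoforms and 875 NNC isoforms (those with at least 1 unannotated splice site) would have been kept. Because the read counts chose the members, their totals are given as a description with no test.

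The samples came from the striatum and the cortex of the left hemisphere of 3-month-old male R6/2 mice and their non-transgenic (NT) controls, with 4 samples per genotype and region. R6/2 (B6CBA-Tg(HDexon1)62Gpb/3J) is a transgenic model of Huntington's disease that carries exon 1 of the human HTT gene with an expanded CAG repeat, expressed from the human HTT promoter on top of the intact mouse gene. Total RNA of both genotypes was treated with an exonuclease that degrades RNA with a 5′ phosphate, and polyA RNA was turned into amplified cDNA. The labels do not say whether cortex and striatum came from the same mice. The paper drew the long-read samples from its short-read cohort and took both regions from the left hemisphere. Some mice therefore probably gave both regions, but which samples share a mouse is not known here. Samples were treated as independent, so the main region and interaction tests take no account of such sharing. The reads carry no molecular identifiers and are amplified copies, so limits given for counts of 0 cover counting error only.

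Most mouse genes with several exons are spliced into more than 1 mRNA, by skipping or including exons, by choosing among alternative splice sites and by pairing an upstream choice with a downstream choice. Short reads see each junction on its own, whereas a long read shows which junctions occur together on a molecule. Neurons are known for many such combinations, in genes of the cytoskeleton, of calcium signalling and of the RNA-binding proteins that regulate splicing. In the catalogues used for classing, a transcript with a known set of sites but an unlisted chain of introns is NIC, whether it skips an exon, adds an exon or exchanges an exon for another.

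The 16 samples held between 252885 and 1496196 reads. In 4 striatal samples (NT replicates 1 and 2, R6/2 replicates 2 and 3) the counts were the sum of 2 files, and these samples stood apart from the other 4 striatal samples, each of 1 file. Their mean isoform length over all reads was 2125 to 2197 nt, against 1589 to 1840 nt in the striatal samples of 1 file and 1821 to 2068 nt in the cortex. All tests in the striatum and between regions carried a term for the number of files. Summed markers of cortical excitatory neurons reached 174 to 272 CPM (reads scaled to a common library total) in the cortex and 18.9 to 81.6 in the striatum, and those of striatal projection neurons 6803 to 11780 in the NT striatum and 320 to 413 in the NT cortex, as the labels of the regions have it. The striatal projection neuron markers summed to 1554 to 3031 CPM in the R6/2 striatum. Fewer cells of a type and less RNA per cell cannot be told apart in bulk tissue, and the part of this difference in the striatal results below was not tested.

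Several of the most-read NIC isoforms belonged to genes whose annotation holds an intron or an exon of a few bases, and the bases around these features are shown to make visible what a read would have to match. The sequences are those of spliced GENCODE M21 transcripts (GRCm38, the build of the files), 5′ to 3′. The authors classed the reads against another release of the annotation. A transcript listed only in M21 can therefore hold no reads here, and an NIC isoform may itself be listed in M21. In the first 6 lines, for the ornithine decarboxylase antizymes Oaz1 and Oaz2, the capitals CG mark the bases joined across an annotated intron of 4 nt (Oaz1-201, chr10:80828292-80828295; Oaz2-201, chr9:65686269-65686272) or 1 nt (Oaz1-207 and Oaz2-206), and the single capital T marks the base that other annotated transcripts keep, followed by ga so that the letters read TGA, a stop codon. Antizyme mRNAs are known for a programmed shift of the reading frame at this stop codon. In the other lines the capitals mark an annotated internal exon, of 5 nt in Sept7 (chr9:25265302-25265306 in Sept7-201), 6 nt in Phb2 (chr6:124716425-124716430), 9 nt in Spock3 (chr8:63113434-63113442) and 11 nt in Tmem237 (chr1:59117331-59117341, minus strand).
Oaz1-201: cggtggtgCGatgtccct
Oaz1-207: tggtgctcCGatgtccct
Oaz1-206: tggtgctccTgatgtccct
Oaz2-201: ctgtggtgCGatgcccct
Oaz2-206: tggtgctcCGatgcccct
Oaz2-203: tggtgctccTgatgcccct
Sept7-201: gcaccatggTTTGTcaaccgaag
Sept7-202: gcaccatggTAGCTcaaccgaag
Phb2-201: ttttactcgGGGAAGtgacagcct
Spock3-203: ttccgagacGAAGTAGAGgatgattat
Tmem237-201: tgtgccaagTGCTATCCAAGacgatattc

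The member with the most reads was the 5-exon NIC isoform TALONT000504028 of Oaz1 (chr10:80826656-80829290, plus strand), which held 19919 of the gene's 20749 complete reads (96.0%), complete reads being those of Known, NIC and NNC isoforms. Its length of 1069 nt was 2 nt less than that of Oaz1-201, the M21 transcript of 6 exons with the 4-nt intron, which held 0 reads. Whether Oaz1-201 was in the release used for classing was not checked. The Oaz1 share was alike in all samples, 96.5 ± 0.23% in NT cortex, 96.0 ± 0.66% in R6/2 cortex, 95.7 ± 0.57% in NT striatum and 95.7 ± 0.47% in R6/2 striatum (SD, n = 4 each). Oaz2 (chr9:65668001-65690300, plus strand) showed the same arrangement, with a 5-exon NIC isoform of 1844 nt holding 5225 of 5751 complete reads (90.9%). The M21 transcripts Oaz2-201 and Oaz2-206 of 6 exons held 0 reads. In Sept7, a septin of the cytoskeleton, a 13-exon NIC isoform held 2178 of 2544 complete reads (85.6%), 1 exon fewer than Sept7-201 and Sept7-202, whose lengths differed from it by 12 and 5 nt. Phb2 and Tmem237 were added after their values were seen. In Phb2, a prohibitin of the inner mitochondrial membrane, a 9-exon NIC isoform of 1312 nt held 1275 of 1336 complete reads (95.4%), against 10 exons and 1318 nt in Phb2-201, which held 0 reads. In Tmem237, which encodes a membrane protein of the primary cilium, a 12-exon NIC isoform of 1819 nt held 356 of 502 complete reads (70.9%), against 13 exons and 1823 nt in Tmem237-201, which held 1 read.

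This arrangement described a minority of the genes led by an NIC isoform. Of 345 genes whose most-read complete isoform was a member, 10 (2.90%) had an M21 transcript with 1 more exon, a length within 40 nt and an intron of at most 20 nt or an internal exon of at most 15 nt, and 30 had such a transcript of any length. An internal exon of at most 15 nt stood in some M21 transcript of 49 of the 345 genes (14.2%), of 82 of the 1238 genes with a member (6.62%) and of 243 of the 10117 genes with at least 5 complete reads in 2 samples (2.402%). An intron of at most 20 nt stood in 8 of 345 (2.32%), 9 of 1238 (0.727%) and 32 of 10117 genes (0.316%). The splice positions of single NIC isoforms were not used here. Whether the short features decided the NIC class of these reads, and whether M21 lists these isoforms, was not tested.

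Other members among the most read led their gene with no such feature within 40 nt. Cd47, the receptor known as a signal against engulfment, had 6 members that differed in exon number from 9 to 12, and the most read, of 11 exons, held 2742 of 4435 complete reads (61.8%) against 86 reads on the main Known isoform. Its share was 63.5 ± 2.4% in NT and 56.1 ± 0.78% in R6/2 cortex, and 67.7 ± 3.1% in NT and 58.0 ± 3.4% in R6/2 striatum (SD, n = 4 each). The ranges did not overlap within either region, yet the change in usage did not pass the test (edgeR's quasi-likelihood test of isoform usage, Benjamini-Hochberg adjusted p = 1 in each region). The endoplasmic reticulum genes Rpn2, a subunit of the oligosaccharyltransferase, and Ergic3, of transport to the Golgi, were each led by an NIC isoform with 1 exon more than the main Known isoform, at 62.4% of 3215 and 60.7% of 2915 complete reads. Mpc1, a subunit of the mitochondrial pyruvate carrier, had 92.0% of 1784 complete reads on a 4-exon NIC isoform of 1812 nt. Spock3, a brain proteoglycan, had 89.4% of 2352 complete reads on an 11-exon NIC isoform, and Ptov1 78.3% of 3276 on a 13-exon NIC isoform.

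**Figure D1:**
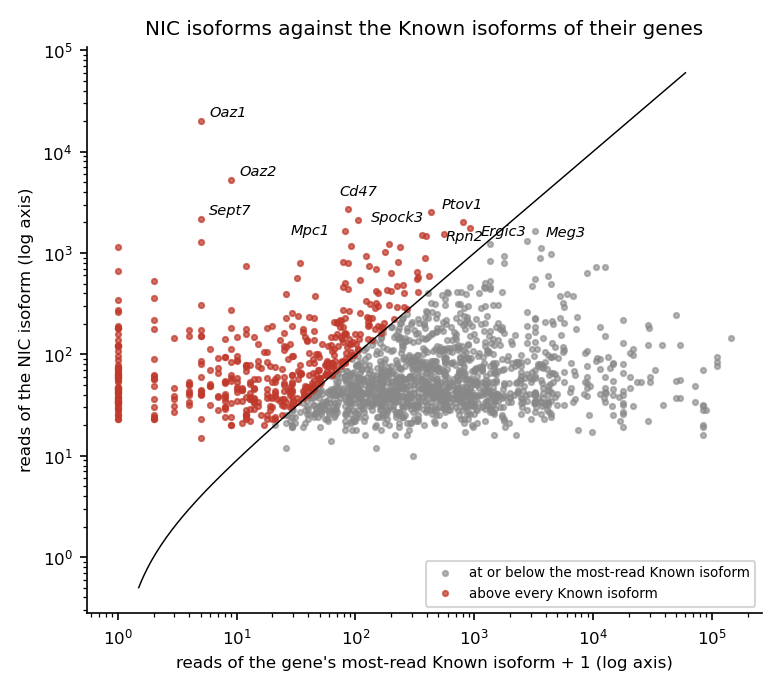
Each point is 1 of the 1812 NIC isoforms, with the reads of the most-read Known isoform of its gene plus 1 on the x axis and its own reads on the y axis, both logarithmic and summed over the 16 samples. The line marks equal reads. The 466 red points above it outnumber every Known isoform of their gene, with Oaz1 at 19919 reads the highest.

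The 1812 members held 216055 of 431276 NIC reads (50.1%) and 2.65% of 8158538 complete reads, while all NIC isoforms together held 5.29%. A member held 10 to 19919 reads with a median of 53 (quartiles 36 and 93). Of the 95929 NIC isoforms with any read, 63931 (66.6%) had 1 read. At the threshold, the 417 members with 5 reads in their second-highest sample had a median of 32 reads and 5.71% of their gene, and the 684 NIC isoforms just outside, with 4 reads there, had 23 reads and 4.49%. Most members were seen in most samples, 404 of them in all 16, while 18 had no read in the cortex (at most 66 in the striatum) and 1 had none in the striatum (18 in the cortex).

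Members were mostly minor forms of their genes. Their median share of the gene's complete reads was 9.85% (quartiles 3.61% and 22.3%), 593 members were under 5%, 142 over 50% and 9 over 90%. A member outnumbered every Known isoform in 367 genes, and in 345 genes it was the most-read complete isoform. In 42 of these 345 genes no Known isoform had a read. Of 308 such genes whose complete reads came to at least 20 in the cortex and at least 20 in the striatum, the same member led in both regions in 239. In 130 of all 345 genes the member led or tied in every sample with at least 5 complete reads. Outnumbering every Known isoform did not need a large share of the gene. In Atp2b1, a plasma membrane calcium pump without reads on a Known isoform, the most-read member held 1141 of 6985 complete reads (16.3%). In Rps24, a ribosomal protein gene whose reads may be shared with pseudogene copies, a 7-exon member held 333 of 4157 (8.01%) against 121 on the main Known isoform, and in Slc22a17 a member held 39 of 3272 against 2. Beyond those named above, the most-read leaders included Tpm3, a tropomyosin (61.8% of 2520 complete reads), the transcriptional corepressor Ctbp1 (59.3% of 2486 complete reads), the myelin-associated glycoprotein Mag (58.8% of 2107), Aplp2, of the family of the amyloid precursor (66.7% of 1725), Add2, an adducin (78.1% of 1314), and Syt5, a synaptotagmin (80.9% of 1142). Ctbp1 and Syt5 were named after their values were seen.

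Exon numbers of members lay close to those of the main Known isoform. Among the 1747 members whose gene had a Known isoform with reads, 681 (39.0%) had the same number of exons as the main Known isoform, 580 (33.2%) had fewer and 486 (27.8%) had more. A difference of 1 exon was the most frequent, with 448 members of 1 exon fewer, which had a median length difference of -99.5 nt, and 288 of 1 exon more, with a median difference of 33 nt. Members with the same number of exons were a median of 28 nt shorter. The share of the gene was 8.40% (median) in members with fewer exons, 9.38% with the same number and 11.8% with more. In the 303 genes led by a member and with Known reads, the order was turned, with 132 leading members of more exons, 100 of the same number and 71 of fewer. In some of these genes the main Known isoform had few exons and few reads, as Sept7-006 (1 exon, 4 reads) and Phb2-003 (3 exons, 4 reads). These counts depended on the Known isoform taken for comparison, and against the Known isoform with the most exons 826 members had fewer, 636 the same and 285 more. The leading members of the 303 genes were not compared with that isoform on their own. The NIC class does not show that both ends of a transcript are whole. Some leading members had far fewer exons than the main Known isoform, as in Elmo1 (7 against 22), and whether these are whole mRNAs was not tested.

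**Figure D2:**
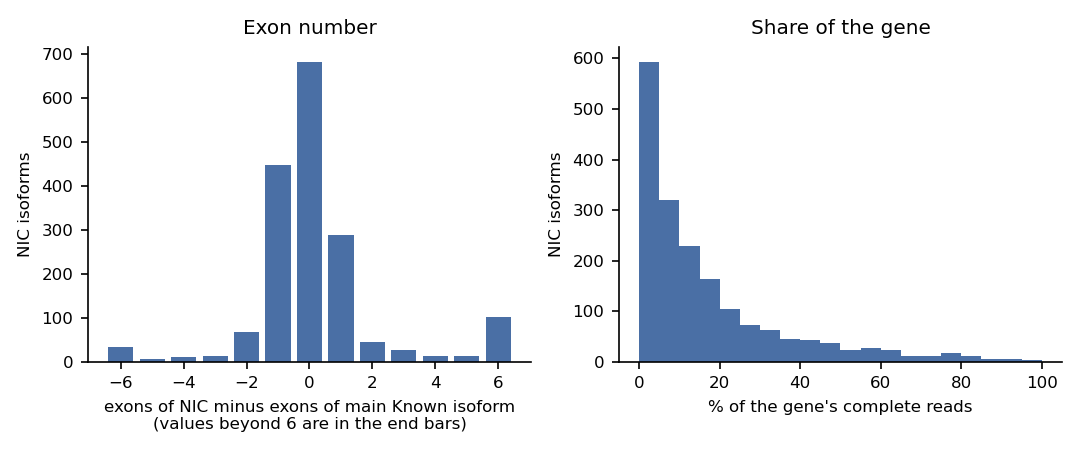
Left, number of members (y axis) by exons of the NIC isoform minus exons of the main Known isoform (x axis), for the 1747 members with a Known isoform in reads. Right, number of members by their percentage of the gene's complete reads, in bins of 5 points. The bars at 0 (681 members) and below 5% (593 members) are the tallest.

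A member was held by 1238 of the 10117 genes with at least 5 complete reads in 2 samples, a background of 12.2% for the gene lists below. The share was higher in genes with more reads, going from 2.39% of 3310 genes under 100 complete reads to 14.5% of 5377, 25.6% of 1332 and 40.8% of 98 genes in the next read classes, each set 10 times higher. Genes with a member had a median of 8 annotated M21 transcripts and genes without 5. Most genes (925) had 1 member, 193 had 2 and 28 had at least 5.

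Among the genes with the most members were Meg3, a maternally expressed long noncoding RNA, with 15, and Ndrg4, the RNA-binding protein gene Celf4 and the ubiquitin ligase gene Ttc3, with 11 each. They differed in how much of the gene the members held, 3.15% of 22747 complete reads in Ndrg4, 28.8% of 3098 in Celf4, 41.7% of 6876 in Meg3 and 56.4% of 3019 in Ttc3. In Meg3 the main Known isoform had 3 exons and 47.1% of the reads, and the members had 7 to 10 exons. Mff, the mitochondrial fission factor, Camk2g, the gamma subunit of calcium/calmodulin kinase II, the chromatin remodeller Atrx and the transcription activator Camta1 had 9 members each, holding 49.2%, 49.1%, 57.1% and 61.2% of their complete reads. Klc1, the light chain of the kinesin motor, had 8 members of 14 to 16 exons that held 65.3% of 5769 reads, against 23.5% on its main Known isoform. The members' share of Klc1 was 65.2% in the cortex and 65.3% in the striatum.

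By function, members were frequent among splicing regulators and rare among ribosomal proteins. Of 45 SR, hnRNP and other splicing regulator genes with enough reads, 20 (44.4%) held 56 members with 17.7% of the list's complete reads, among them 2 isoforms of Hnrnpk of 16 exons (21.4% and 17.96% of the gene), Srsf5 (19.0%) and Mbnl2 (30.4%). Of 23 motor protein and dynactin genes, 6 held 15 members with 15.5% of the reads, mostly Klc1. Of 22 clathrin endocytosis genes, 6 held 10 members with 7.05%, among them 3 isoforms of Bin1, an amphiphysin, of 13, 18 and 14 exons at 36.4%, 22.1% and 17.1%. Of 25 actin and spectrin genes, 11 held 19 members with 3.63%. Of 20 calcium/calmodulin kinase and calcineurin genes, 6 held 18 members with 2.21%. Of 32 ribosomal protein genes, 2 (Rps24 and Rps6) held a member, with 0.187% of 210747 complete reads, and of 32 nuclear genes of oxidative phosphorylation, 8 held members with 0.397%. In the other lists a member was held by 7 of 26 microtubule and neurofilament genes, 4 of 24 synaptic vesicle genes, 6 of 23 postsynaptic genes, 4 of 20 ion pump and channel genes, 6 of 26 genes of G protein signalling, 1 of 9 genes of the m6A mark, 5 of 28 proteasome and ubiquitin genes, 5 of 15 myelin and oligodendrocyte genes and 9 of 18 neurodegeneration genes. Among these stood Gphn, the gephyrin of inhibitory synapses, with a 22-exon member at 44.1%, and Mapt, the tau protein, with 2 members of 11 exons at 8.07% and 3.56%. Of the marker lists, 2 of 7 striatal projection neuron genes and 1 of 6 astrocyte genes held a member, and no cortical excitatory, microglial or choroid plexus marker gene did. Because genes with more reads held a member more often, these counts are not of genes of like depth.

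The share of complete reads in the whole NIC class, which does not depend on the rule for members, was compared next. It was 4.97, 5.28, 5.50 and 5.68% in NT cortex and 4.89, 5.31, 5.37 and 5.37% in R6/2 cortex, overlapping throughout (difference -0.125 percentage points, two-sided exact permutation p = 0.571, smallest possible 0.0286). In the striatum it was 5.69, 5.38, 4.52 and 3.50% in NT and 4.69, 5.83, 5.97 and 4.38% in R6/2 mice (difference 0.442 points, exact permutation p = 0.486, and 0.167 when permuted within samples of the same number of files, where the smallest possible is 0.0556). The 4 striatal samples of 2 files held the highest shares of the region and the 4 of 1 file the lowest. Between regions the mean was 5.30 ± 0.26% in the cortex and 4.99 ± 0.86% in the striatum (SD, n = 8 each; difference -0.303 points, exact permutation p = 0.385 within genotypes). The direction turned with the striatal samples used, at -1.03 points for those of 1 file (exact permutation p = 0.00444, the smallest possible) and 0.421 points for those of 2 files (exact permutation p = 0.0444), subsets chosen after the data were seen. Mean isoform length moved with the share over samples, and its part in these values was not tested.

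**Figure D3:**
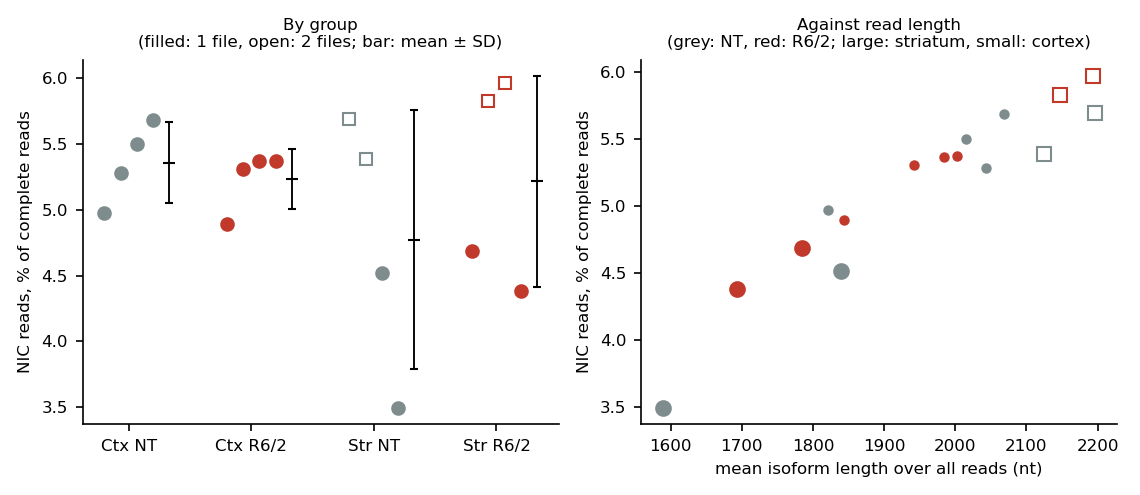
NIC reads as a percentage of complete reads in each of the 16 samples (y axis, not starting at 0), by region and genotype on the left, with bars for the mean ± SD of 4 samples, and against the mean isoform length over all reads on the right. Filled circles are samples of 1 count file and open squares samples of 2 files, and the latter sit at 5.38 to 5.97% and 2125 to 2197 nt.

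Isoform usage, the part of a gene's complete reads that falls on an isoform, was compared between genotypes to ask whether NIC combinations change in R6/2 mice. In the cortex, 6 of 1297 members tested were called (edgeR's quasi-likelihood test of isoform usage, adjusted p under 0.05 over all 8394 isoforms tested), 4 higher and 2 lower in R6/2 mice. Over all isoforms, 18 (0.214%) were called, 0.0953% higher and 0.119% lower. The read rule gives members more reads than many of the isoforms tested, so the shares are not of like isoforms. At an unadjusted p under 0.05 there were 128 members (9.87%) and 419 of all isoforms (4.99%), again not of like isoforms. Of the 6, 3 (Dctn2, Sult4a1 and Tmem191c) met the read rule only through samples of the genotype in which they were higher (over both regions) and had no sample of at least 5 reads in the other genotype. They had to differ to be members, so their values are given as a description without a test and the count is not support for a change. The count was 1 without NT replicate 2, 1 without R6/2 replicate 3 and 3 without R6/2 replicate 2.

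In Dctn2 (chr10:127266368-127281950, plus strand), of the dynactin complex that links dynein to its cargo, a 13-exon NIC isoform held 0.590, 0.732, 0 and 0.464% of complete reads in the NT cortex and 3.36, 3.43, 2.86 and 4.73% in the R6/2 cortex. In the striatum the same isoform held 0.286, 0.765, 0 and 0% in NT and 1.49, 3.38, 3.14 and 1.49% in R6/2 mice. No NT sample of either region had more than 4 reads of it, so the read rule itself favoured such a difference. The main Known isoform Dctn2-201 has 14 exons. Klc1, which met the read rule in both genotypes, had a 15-exon NIC isoform at 14.8 ± 2.2% in NT and 30.4 ± 4.4% in R6/2 cortex (SD, n = 4; log2 change 1.04, adjusted p = 0.049, edgeR), a call kept in 4 of 16 alternatives and, of 8 fits without a library, in that without NT replicate 1, with log2 changes of at least 0.96 and adjusted p of 0.039 to 0.2. The same Klc1 isoform stood at 11.8% in NT and 22.9% in R6/2 striatum, where it did not pass (log2 change 0.75, adjusted p = 0.35, edgeR).

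Camk2b (chr11:5969644-6066362, minus strand), the beta subunit of calcium/calmodulin kinase II, was the only gene with a member called in both regions. Its 20-exon NIC isoform, 1 exon short of the main Known isoform Camk2b-003, held 7.65, 5.08, 6.67 and 7.34% of complete reads in the NT cortex and 19.6, 24.8, 25.9 and 13.9% in the R6/2 cortex. In the striatum it held 16.1, 13.5, 13.9 and 10.8% in NT and 46.5, 40.7, 41.8 and 36.0% in R6/2 mice. Neither region showed any overlap, and Camk2b-003 went from 74.3% to 47.3% of the pooled striatal reads. The log2 change was 1.64 in the cortex (adjusted p = 0.0021) and 1.60 in the striatum (adjusted p = 3.5e-05, both edgeR), and the interaction of region and genotype was -0.04 (adjusted p = 1, edgeR). The cortical call was lost without NT replicate 2 or R6/2 replicate 3 (log2 change 1.5 to 1.8 over all fits without a library, adjusted p at most 0.075), and the striatal call was kept in all 8 such fits. The striatal call was lost without the term for the number of files and within the samples of 1 file and of 2 files alone (log2 change of at least 1.48 and adjusted p of up to 0.23 over all 20 alternatives, edgeR). This member had at least 5 reads in all 16 samples. The other 3 members of Camk2b, of 20, 20 and 21 exons, held at most 1.53% in any group mean.

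The remaining cortical calls rested on few reads. A 2-exon NIC isoform of Sult4a1, a brain sulfotransferase, had 16 of 2345 complete reads in NT cortex and 0 of 3000 in R6/2 cortex, which allows a share of up to 0.1%. A 16-exon NIC isoform of Ndrg4 fell from 32 of 2448 to 5 of 4061 reads, with overlap between the genotypes (adjusted p = 0.032, edgeR, and up to 0.37 and lost without NT replicate 2 or 4 or R6/2 replicate 2, 3 or 4). A 6-exon NIC isoform of Tmem191c held 1.385 ± 1.108% in NT cortex and 11.6 ± 2.7% in R6/2 cortex (SD, n = 4), with at most 2 reads in any NT sample.

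In the striatum, 13 of 1716 members tested were called, 11 higher and 2 lower in R6/2 mice, against 39 of all 13619 isoforms (0.286%), 0.191% higher and 0.0955% lower (edgeR's quasi-likelihood test, adjusted p under 0.05). At an unadjusted p under 0.05 there were 193 members (11.25%) and 811 of all isoforms (5.955%), which are not of like reads. Of the 13, 7 met the read rule only through the genotype in which they were higher, namely the members of Camkv, Hnrnpdl, Glb1, 2410002F23Rik, Mpv17l2 and Srrt and TALONT000811857 of Bcas1, and these too are described without a test. Of the 11 called higher, 6 had 1 exon fewer than the main Known isoform, 4 had more exons and 1 came from a gene without Known reads. Among all 1747 members with Known reads in their gene, 448 had 1 exon fewer and 486 had more. The 6 include those of Camkv, Hnrnpdl and 2410002F23Rik, which met the read rule only in R6/2 samples, so the count is a description. The count was 5 without R6/2 replicate 2, 7 without R6/2 replicate 3, 3 without the term for the number of files, 1 within the samples of 1 file and 1 within those of 2 files, where 2 samples of each genotype remain. The genotypes also differed in the summed striatal projection neuron markers given above.

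Among signalling and RNA-binding genes, Camkv, a kinase-like protein that binds calmodulin, had a 10-exon NIC isoform with 1 of 2829 complete reads in NT and 24 of 1540 in R6/2 striatum. It held 0.100, 0, 0 and 0% in NT and 1.34, 2.11, 1.07 and 2.14% in R6/2 samples, and met the read rule only in R6/2 samples. In the cortex it was too thinly read to be tested, with 0 reads in all NT samples and 0, 3.36, 0.526 and 1.79% in R6/2 samples. Hnrnpdl, an RNA-binding protein, had a 7-exon NIC isoform at 1.47, 0.614, 1.47 and 3.57% in NT and 12.8, 9.18, 12.8 and 12.9% in R6/2 striatum. It too met the read rule only in R6/2 samples. In the cortex the Hnrnpdl isoform held 0, 0, 0 and 2.56% in NT and 13.9, 21.4, 9.86 and 0% in R6/2 samples, with overlap through R6/2 replicate 4. A 14-exon NIC isoform of the splicing factor gene Rbfox1, for which no Known isoform had reads, rose from 1.97 ± 2.31% to 12.02 ± 4.33% (SD, n = 4; adjusted p = 0.035, edgeR, and up to 0.21 and lost without any library but NT replicate 2).

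Of the 11 called higher, 3 came from 2 genes of the myelin and oligodendrocyte list, of which 17 members were tested. Over all members tested the 11 were of 1716, and over all isoforms 0.191% were called higher. TALONT000811857 of Bcas1 met the read rule only in R6/2 samples, so the count for the list is a description. Bcas1, expressed as oligodendrocytes mature, had 5 members, of which the 9-exon form rose from 1.71 ± 0.39% to 5.83 ± 0.94% (SD, n = 4; log2 change 1.86, adjusted p = 0.0015, edgeR). The 8-exon form TALONT000811857 held 0.888 ± 0.832% in NT and 3.43 ± 1.45% in R6/2 striatum (SD, n = 4), with at most 3 reads in any NT sample. The most-read member of Bcas1, another form of 8 exons, stood at 26.3% in NT striatum and 24.6% in R6/2 striatum and was not called (adjusted p = 1, edgeR). The call of the 9-exon form was lost without R6/2 replicate 2 (adjusted p = 0.065, edgeR), and also with no filter on low counts, without the term for the number of files and within the samples of 1 file and of 2 files alone. A 5-exon isoform of Mobp, a myelin protein, went from 0.367 ± 0.425% to 1.52 ± 0.38% (SD, n = 4; adjusted p = 0.049, edgeR, and up to 0.41 and lost without any library but NT replicate 1). Summed myelin and oligodendrocyte markers ranged from 11080 to 29350 CPM in NT and from 13460 to 20940 in R6/2 striatum, and their part in these changes was not tested.

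The other striatal calls described here came from genes of different function. Selenow, a small selenoprotein, had a 5-exon isoform that rose from 2.01 ± 0.39% to 4.83 ± 0.77% (SD, n = 4; adjusted p = 0.033, edgeR, and up to 0.28 and lost without any library but NT replicate 1 or 3). Isoforms of 2410002F23Rik (1 of 598 against 21 of 656 reads, with overlap) and of Mpv17l2 (0 of 133 against 12 of 109 reads) were higher on few reads. The 2 called lower were also thinly read. The 15-exon isoform of the lysosomal enzyme gene Glb1 went from 24 of 56 to 2 of 100 complete reads and that of Srrt, of 16 exons, from 14 of 73 to 0 of 65, and both overlapped between the genotypes through NT replicate 4, which had 1 and 4 complete reads of these genes.

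**Figure D4:**
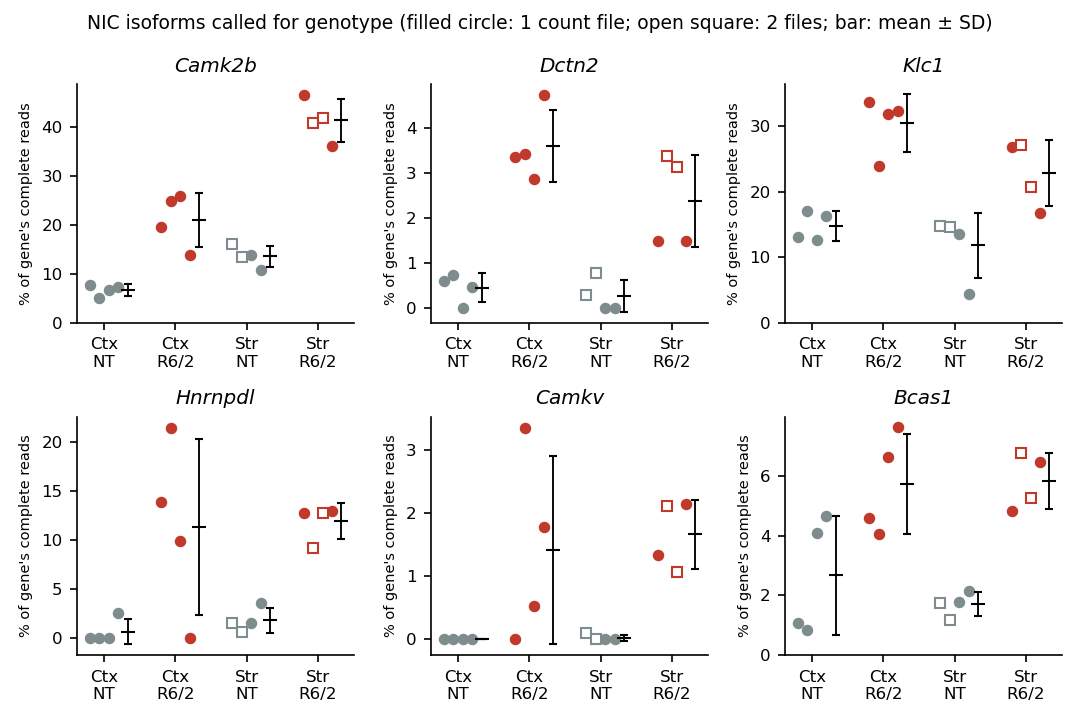
Percentage of the gene's complete reads (y axis) on 6 NIC isoforms in each sample, by region (Ctx, cortex; Str, striatum) and genotype (grey NT, red R6/2). Filled circles are samples of 1 count file, open squares samples of 2 files, and bars the mean ± SD of 4 samples. Camk2b is without overlap in both regions, whereas Bcas1 overlaps in the cortex. The members of Dctn2, Hnrnpdl and Camkv met the read rule only in R6/2 samples.

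Across both regions, 18 members were called for genotype, 12 of them could be tested in both regions, and 1 (Camk2b) was called in both. For the members that did not need the higher genotype to meet the read rule, the log2 change in the region without a call was -0.42 for Ndrg4 in the striatum and 0.75 for Klc1 in the striatum. In the cortex it was 0.06 for Rbfox1, 1.10 for the 9-exon form of Bcas1, 1.24 for Mobp and 1.52 for Selenow, and none of these passed the test (edgeR, adjusted p of 0.35 to 1). The interaction of region and genotype was called for 0 of 1770 members and 0 of 19251 isoforms (edgeR, 0%). At an unadjusted p under 0.05 there were 58 members (3.28%) and 579 of all isoforms (3.01%). DESeq2 had 28 members at that p and also called 0. In simulated data the interaction test recovered 28 of 200 changes of 4-fold (14%), set in isoforms with more reads than most members have. Thus 0 calls do not show that the genotype differences are alike in both regions.

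Between regions the term for the number of files makes the comparison that of the striatal samples of 1 file with the cortex. Of 1770 members tested, 18 were called, 8 higher and 10 lower in the striatum, against 130 of all 19251 isoforms (0.675%), 0.416% higher and 0.26% lower (edgeR's quasi-likelihood test, adjusted p under 0.05). At an unadjusted p under 0.05 there were 189 members (10.7%) and 1499 of all isoforms (7.79%), which are not of like reads. Of the 18, 8 would not have met the read rule on the samples of the region in which they were lower, among them those of Yjefn3, Arpp21, Gas7, Fam49b and Tnrc6b, TALONT000157302 of Rbfox1 and TALONT000687075 of Eef1a1, whose values are given without a test. The usage of 6 of the 18 did not overlap between the 8 cortical and the 8 striatal samples. This is a description only, since the 18 were called on the same values and non-overlap was not counted over all isoforms. The count was 8 without striatum NT replicate 3 or R6/2 replicate 1, 9 without striatum NT replicate 4 or cortex NT replicate 4, and 10 without striatum R6/2 replicate 4. It was 4 with samples blocked by genotype and replicate number (the replicate block).

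Of the members without overlap, 4 had lower usage in the striatum. A 10-exon isoform of Sept8, a septin, held 22.1 to 32.5% with a median of 24.6% in the cortex and 5.56 to 19.4% with a median of 13.7% in the striatum (n = 8 each; log2 change -1.49, adjusted p = 0.013, edgeR, kept in 22 of 27 alternatives). A 9-exon isoform of Ghitm, of the inner mitochondrial membrane, held 6.61 to 12.2% with a median of 8.90% in the cortex and 2.53 to 5.37% with a median of 3.85% in the striatum (log2 change -1.27, adjusted p = 0.019, edgeR, kept in 22 of 27). An 11-exon isoform of Prkar1b, a regulatory subunit of protein kinase A, held 4.36 to 13.4% with a median of 7.33% in the cortex and 0 to 3.54% with a median of 2.58% in the striatum (log2 change -1.59, adjusted p = 0.039, edgeR, kept in 16 of 27). These 3 isoforms have as many exons as the main Known isoform of their gene, as do 6 of the 10 members lower in the striatum. The calls of all 3 were lost without striatum NT replicate 3 or striatum R6/2 replicate 1, with adjusted p of up to 0.19 (Sept8), 0.22 (Ghitm) and 0.23 (Prkar1b) over the fits without a library. Ghitm and Prkar1b were also lost without cortex NT replicate 4, and Prkar1b without cortex R6/2 replicate 1, striatum NT replicate 4 or striatum R6/2 replicate 4. With no filter on low counts or with the replicate block none of the 3 was called, and Sept8 was also lost without the term for the number of files.

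Tuba1b, an alpha-tubulin whose reads may be shared with near-identical copies, had the smallest p, and its values followed the count files. Its 4-exon member TALONT000592588 held 7.27 to 14.7% with a median of 10.0% in the cortex, 0% in all 4 striatal samples of 1 file, and 4.37, 3.58, 4.51 and 4.15% in those of 2 files. The first files of the latter and the files of the samples of 1 file together had 0 of 3480 reads, which allows a share of up to 0.0862%, whereas the second files had 194 of 2459 (7.89%). The adjusted p was 3.3e-18 with the term for the number of files and 0.12 without it (edgeR). Yjefn3 showed the opposite arrangement, with a 4-exon member at 31.7, 43.5, 37.5 and 59.1% in the striatal samples of 1 file, 0 to 6.67% in those of 2 files and 0 to 13.3% in the cortex.

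Higher usage in the striatum without overlap was seen for App, the amyloid precursor protein, and Rbfox1. The 17-exon member of App held 0.365 to 1.30% with a median of 0.880% in the cortex and 1.75 to 5.56% with a median of 2.03% in the striatum (log2 change 1.64, adjusted p = 0.017, edgeR, kept in 20 of 27 alternatives). The 13-exon member TALONT000157302 of Rbfox1 had 0 of 171 complete cortical reads and 25 of 522 complete striatal reads, which in the cortex allows a share of up to 1.75%. The App call was lost without cortex NT replicate 2, striatum NT replicate 3, striatum NT replicate 4 or striatum R6/2 replicate 1, with adjusted p of up to 0.12 (edgeR). It was also lost with the replicate block, with DESeq2 and with no filter on low counts.

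The calls with overlap included a 13-exon member of Apbb1, an adaptor that binds App, at 6.78 to 13.6% in the cortex and 0.659 to 6.82% in the striatum (adjusted p = 0.00032, edgeR). The Apbb1 call was kept in 26 of 27 alternatives and lost with the replicate block (adjusted p = 0.061, edgeR). Camk2b was called for region as well, with its 20-exon member higher in the striatum (log2 change 0.96, adjusted p = 0.033, edgeR), a call lost without any of 7 libraries, 4 cortical (NT 2 and 4, R6/2 1 and 4) and 3 striatal (NT 3, R6/2 1 and 4). A 9-exon member of Myt1l, a neuronal transcription factor, held 5.36 to 26.3% in the cortex and 12.1 to 40.4% in the striatum (adjusted p = 0.018, edgeR, and up to 0.12 and lost without cortex NT replicate 4, striatum NT replicate 4 or striatum R6/2 replicate 1 or 4). The region calls of Camk2b and Myt1l were also lost with the replicate block. Also called were 2 members of the elongation factor gene Eef1a1, whose copies may share reads, and members of Arpp21, Gas7, Fam49b and Tnrc6b, with 9 to 43 reads in the region where each was lower. Of these, TALONT000687105 of Eef1a1 met the read rule in both regions, and its call was kept in all 16 fits without a library and lost without the term for the number of files.

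**Figure D5:**
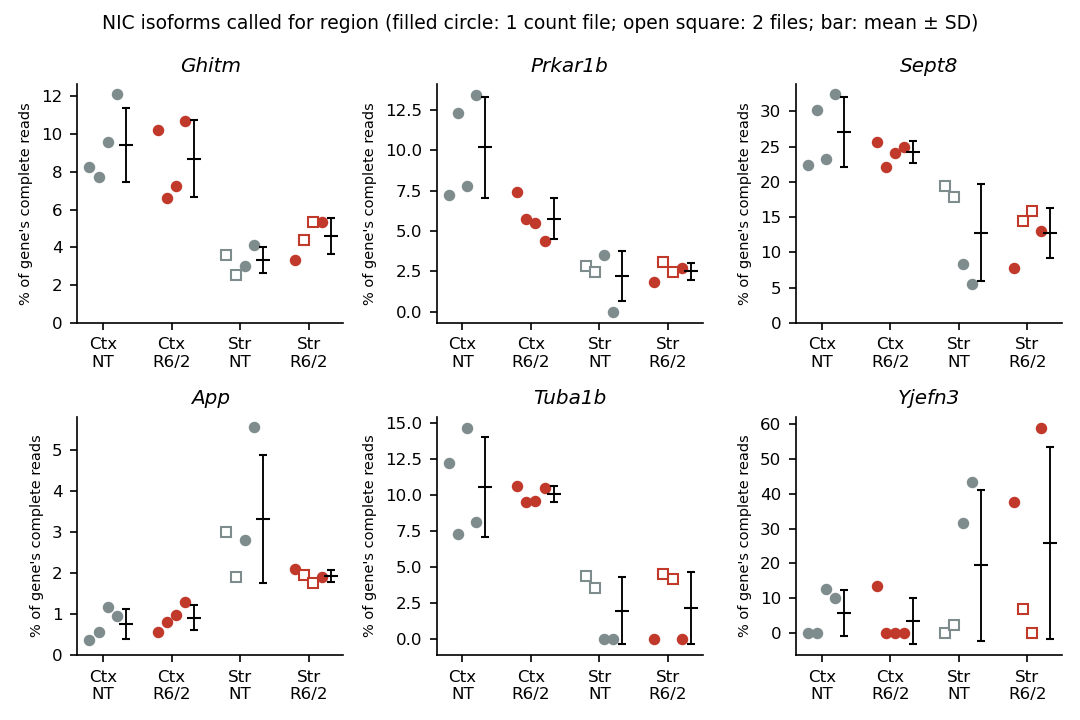
Percentage of the gene's complete reads (y axis) on 6 NIC isoforms in each sample, by region (Ctx, cortex; Str, striatum) and genotype (grey NT, red R6/2), with the mean ± SD of 4 samples. Filled circles are samples of 1 count file and open squares samples of 2 files. Sept8, Ghitm, Prkar1b and App do not overlap between regions, whereas in Tuba1b and Yjefn3 the filled and open symbols of the striatum lie apart.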

How the data were processed

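Transcripts were measured by PacBio Iso-seq in 16 samples. According to the methods, the authors made circular consensus reads, aligned them with minimap2 (2.17-r941 in the submitters' processing notes) to mm10, corrected them with TranscriptClean and classed them with TALON against Ensembl. The Ensembl release they name is not that of GENCODE M21. The deposited values are unfiltered read counts per isoform, in 20 count files, and the 2 files of 4 striatal samples were summed. Genes whose names had been turned into dates were named by their Ensembl ID. Depth was 252885 to 1496196 reads per sample, which limits isoforms of few reads.

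From the counts, complete reads (Known, NIC and NNC isoforms of Known genes) were summed per gene. Usage was tested with edgeR 4.0.16 (R 4.3.3; quasi-likelihood fit and isoform-level test of differential splicing) over isoforms with at least 10 reads in genes of at least 2 such isoforms, with Benjamini-Hochberg adjustment over all isoforms tested. A log2 change is that of the isoform relative to the rest of its gene. Class shares were compared by exact permutation. The limit that a count of 0 allows was 3 counts per group. GENCODE M21 (GRCm38) gave short features and sequences, and Python 3.11.15 with pandas 2.3.3 the tables. The fits were tested on simulated data with 200 isoforms changed 4-fold. These isoforms were drawn from those with a fitted mean of at least 10 reads per sample that held the smaller part of their gene. The fits recovered 62% of them in the cortex, 58.5% in the striatum and between regions, and 14% for the interaction. Members had a median of 53 reads over the 16 samples, so the shares recovered do not apply to most members. DESeq2 1.42.0 and other alternatives are given in the closing section.

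Named were the 10 members with most reads, the 10 genes with most members, the 10 genes of most reads with a member above every Known isoform, up to 10 called members for each genotype comparison and for region, and up to 4 examples of each of 21 gene lists; 3 further striatal calls and the region calls with overlap were named after their values were seen. The members and lists were chosen with earlier results of these data known. The p-values measure the spread between samples. The human transgene and the authors' own comparisons were not analysed here. Some named items are not reported here, although the counts include them.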

Additional observations from a re-analysis of the deposited data

Results flagged for a closer look

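Over 66 groups of 4 samples, 9 held a sample set apart from the other 3 by more than Dixon's critical value for 4 samples allows, where chance gives about 1 group in 20 for values of a continuous measure. In the groups of Camkv, 2410002F23Rik and Glb1 the other 3 samples were at 0%, so that any read sets a sample apart and this rate does not apply. In the whole NIC class, cortex R6/2 replicate 1 stood low at 4.89% of complete reads. In NT striatum, replicate 1 had 0.100% for the Camkv member, replicate 2 had 0.373% for that of 2410002F23Rik, and replicate 4 had 2.13% for TALONT000811857 of Bcas1, each above the others. In R6/2 striatum, replicate 2 was low for Hnrnpdl at 9.18%, replicate 4 was low for Selenow at 3.68%, and replicate 1 was low for the 14-exon member of Rbfox1 at 5.56%. Replicate 3 was high for Glb1 at 5.13% and replicate 4 was high for the 13-exon member of Rbfox1 at 9.09%. Several of these values rest on 1 or 2 reads, as in Camkv, 2410002F23Rik, Glb1 and Rbfox1.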

How the results depend on the processing

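For the 37 calls of single members, 826 values under alternatives had the same direction, 552 still called and 274 not, and 0 were reversed. The 13 striatal members called for genotype were 5 with DESeq2, 7 with incomplete (ISM) isoforms added, 5 with the first file only, 4 with no filter on low counts, 3 with no term for the number of files, and 1 each within samples of 1 file and of 2 files, both chosen after seeing the data. The 18 called for region were 39 with ISM isoforms added, 8 with no filter and 4 with the replicate block. Leaving out each library gave 1 to 8 cortical calls (6 with all), 5 to 17 striatal calls, 8 to 25 region calls and 0 interaction calls. The difference in the NIC class share then ran from -0.254 to -0.0107 points in the cortex, 0.0167 to 0.749 in the striatum and -0.439 to -0.0855 between regions, and it was -1.03 points with striatal samples of 1 file and 0.421 with those of 2. The number of members (1812) became 7450 with at least 2 reads, 682 with at least 10, 1073 with at least 4 samples and 1177 with the first file only. The 345 genes led by a member became 130 when it had to lead or tie in every sample with enough complete reads. The 486 members with more exons became 285 against the Known isoform with the most exons. Same-numbered samples correlated at -0.39 to 0.7 across regions and -0.78 to 0.85 across genotypes, and 8 of 16 correlated best with their own number. These values do not decide whether the numbers mark mice, and the main fits did not pair samples by number. By the paper's description some mice probably gave both regions, and which samples share a mouse is not known here. With the replicate block 4 cortical and 11 striatal members were called, and DESeq2 called 4 in the cortex. The causes were not tested, and the depth limits isoforms of few reads.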

Other observations

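The 9-exon member of Myt1l, chosen after its values were seen, was not called for genotype, although its values did not overlap between genotypes in either region. It held 22.5, 21.2, 26.3 and 17.8% in NT cortex and 5.66, 5.36, 7.23 and 6.06% in R6/2 cortex (adjusted p = 0.24, edgeR). In the striatum it held 21.7, 36.9, 33.7 and 40.4% in NT and 21.2, 12.1, 12.1 and 18.8% in R6/2 samples (adjusted p = 0.17, edgeR). Each R6/2 value lay below each NT value of its region, on 2 to 58 reads per sample, and neither difference passed the test.

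In Klc1, members differed in direction. While the 15-exon member called in the cortex rose in R6/2 mice, TALONT000639644 of 14 exons went from 13.2 to 7.71% in the cortex (log2 change -0.73, adjusted p = 0.56, edgeR) and from 10.8 to 4.89% in the striatum (log2 change -1.21, adjusted p = 0.054, edgeR), neither past the threshold. The 12-exon member TALONT000405258 of Cd47 went from 17.96 ± 0.44% to 24.4 ± 0.98% in the cortex (SD, n = 4; adjusted p = 1, edgeR) and from 12.4 to 19.6% in the striatum (adjusted p = 0.57, edgeR), also short of the threshold.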
